A study of Homo sapiens with 6 samples.

Results

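The miRNAs hsa-miR-1246, hsa-miR-4644, hsa-miR-3976 and hsa-miR-4306 have been described together as markers in serum exosomes of patients with pancreatic cancer, and their level inside pancreatic ductal adenocarcinoma (PDAC) cells was read here from arrays of Panc-1 cells. Panc-1 is an established human PDAC line. RNA of untreated control cells (TGF-β dose 0) was on 3 arrays, and RNA of cells given TGF-β at 10 ng/mL for 72 h was on another 3. The 4 members were chosen by name, and each has a single probe with 1 spot, beside the probes of 2561 other miRNAs on each array. The arrays hold total RNA of the cells, not RNA of the extracellular vesicles (EVs) that the cells release, and nothing in the labels says that the arrays of a group came from separate cultures. The p-values therefore measure the spread between these arrays, which may be technical.

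A miRNA is a short RNA that is loaded into an Argonaute protein and pairs with target transcripts mainly through its seed, bases 2 to 8. Cells sort some of their miRNAs into EVs, and the level in vesicles need not follow the level in the cell. TGF-β is a secreted cytokine that drives the epithelial–mesenchymal transition (EMT) in many epithelial cells. The comparison asks which of these vesicle miRNAs Panc-1 cells hold at a measurable level, and whether TGF-β changed it.

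The mature sequences are from RefSeq on GRCh38.p14, in which 2253 of the probe names (87.8%) matched, 3 of the 4 members among them. They are shown so that their seeds and the relatives of the members can be compared. Capitals mark the seed.
miR-1246: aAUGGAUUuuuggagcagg
miR-4306: uGGAGAGAaaggcagua
miR-3976: uAUAGAGAgcaggaagauuaaugu
These 3 members had different seeds. Among the matched array miRNAs, none shared the seed of miR-1246 or of miR-3976, and 1 shared that of miR-4306, namely miR-185-5p. With 17 bases miR-4306 was short, since 2.57% of the matched miRNAs were no longer than that. miR-1246 had 19 bases and miR-3976 had 24, against a median of 22. The GC content was 42.1% for miR-1246, 47.1% for miR-4306 and 33.3% for miR-3976, each below the median of 52.2%.

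Longer runs in common with another array miRNA were searched with a minimum of 12 bases on the same strand. Of the 3 members with a sequence, 2 had 1 such relative each, and capitals mark the common run.
miR-4306: UGGAGAGAAAGGCAGUa
miR-185-5p: UGGAGAGAAAGGCAGUuccuga
miR-1246: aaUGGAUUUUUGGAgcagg
miR-1290: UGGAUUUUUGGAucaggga
The first 16 of the 17 bases of miR-4306 were also the first 16 of miR-185-5p, a widely expressed miRNA. miR-1246 had 12 bases in common with miR-1290, which is often described beside miR-1246 in tumour cells and serum. The run lay at bases 3 to 14 of miR-1246 and at bases 1 to 12 of miR-1290, so that their seeds differed. miR-1246 also occurs as part of the U2 small nuclear RNA, and a probe for it can take up fragments of U2. How specific each probe is was not given in the sources used here, and hybridization of a relative to a member's probe was not tested.

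The genes of the 4 members lay on different chromosomes, and none had another miRNA gene within 10 kb. MIR1246, on chromosome 2 from 176600980 to 176601052, lay inside no other annotated gene. MIR4306, on chromosome 13 from 99643059 to 99643149, lay within the interval of CLYBL, a protein-coding gene for a mitochondrial enzyme. MIR4644, on chromosome 6 from 170330761 to 170330844, lay within the interval of FAM120B, also protein-coding. MIR3976, on chromosome 18 from 5840695 to 5840833, lay within its lncRNA host gene MIR3976HG. The annotation used gives gene intervals only, so exon and intron were not told apart. The mature miR-4306 lay on the 3′ side of its hairpin, while miR-185-5p lay on the 5′ side of the hairpin of MIR185 on chromosome 22, and the precursors are thus different genes with different arms.

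Detection and level are given as intensity units above the mean of the array's blank spots, and a spot was called detected when it exceeded that mean by 2 SD. Blank means were 18.2 to 21.3 units with SDs of 0.528 to 0.768. Between 1531 and 1787 miRNAs were detected per array, with the highest number on TGF-β replicate 2, and 1282 were detected on all 6 arrays. The labels name no chip, but the names of the deposited files carry one code for all control arrays and another for all TGF-β arrays. If that code stands for the chip, chip and treatment cannot be told apart. As a check of the cells, all 4 miRNAs fixed as markers of a carcinoma line were detected on all arrays, with a summed level of 21538 to 29632 units on the control arrays and 23648 to 25561 units on the TGF-β arrays. The 3 acinar markers summed to between -0.484 and 2.84 units, miR-216b-5p and miR-217 were detected on no array, and miR-216a-5p was detected on 2. Of the 5 blood cell markers, 2 were detected on all arrays, and their sum was 22.1 to 34.6 units. Of the islet markers, miR-7-5p was detected on all arrays, and miR-375 on 1. The islet sum, nearly all from miR-7-5p, was 267 to 513 units on the control arrays and 381 to 474 units on the TGF-β arrays. By brightness miR-7-5p held places 81 to 101, so bright signal was not confined to the carcinoma line markers. In RNA of whole cultures, fewer cells that hold a miRNA and less of it per cell cannot be told apart.

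**Figure D1:**
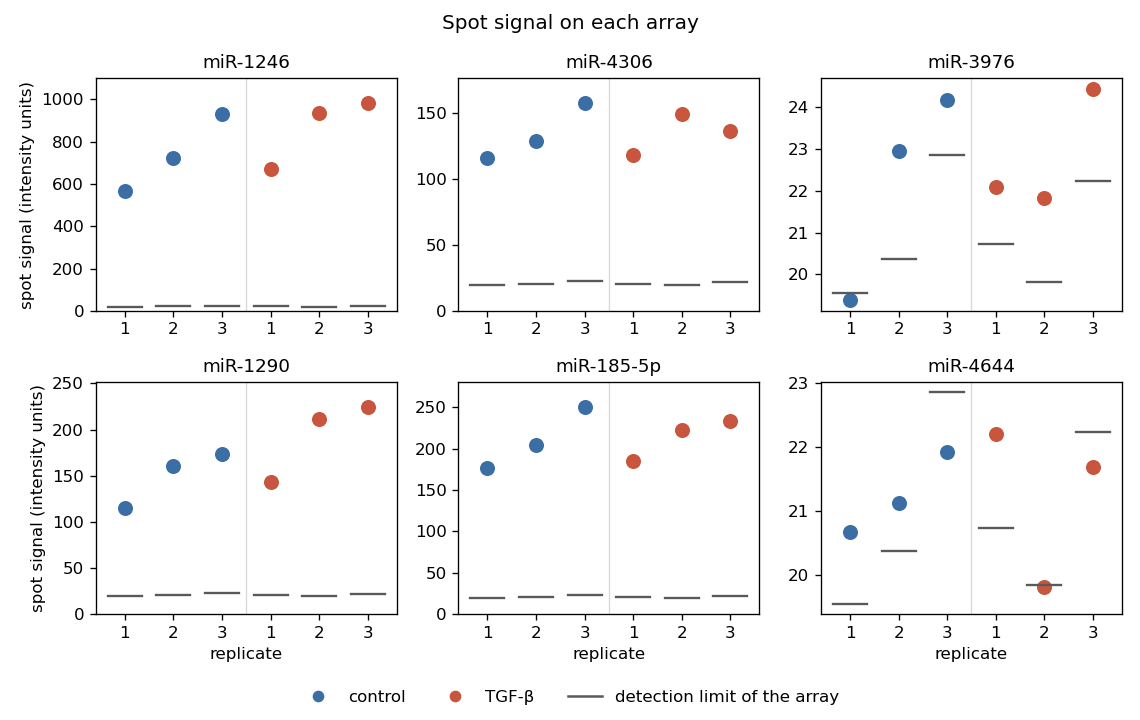
Spot signal in intensity units (vertical axis, which starts at 0 only for the 4 bright probes) on the 3 control and 3 TGF-β arrays, with the detection limit of each array as a grey line. miR-1246, miR-4306 and their relatives miR-1290 and miR-185-5p lay far above the limit on all 6 arrays, whereas miR-3976 and miR-4644 lay close to it, miR-3976 below it on 1 array and miR-4644 on 3.

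miR-1246 was the brightest of the members. Its level above the blank mean was 548, 704 and 912 units on the control arrays and 652, 916 and 960.4 units on the TGF-β arrays. The groups overlapped, with means of 721 ± 183 units (SD, n = 3) without TGF-β and 843 ± 166 units (SD, n = 3) with it. Even the dimmest of its spots exceeded the blank mean by 839 blank SDs. By brightness it held places 54 to 64 among all miRNA probes, within the top 2.5%. Brightness ranks are over probes that bind their targets with different strength, so they are not ranks of RNA amount.

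miR-4306, with a local background beside its spot of 0.582 to 0.981 of the spot's signal, was also well above the blank spots. Its level was 97.7, 109 and 136 units on the control arrays and 98.9, 131 and 115 units on the TGF-β arrays, or 114 ± 19.8 (SD, n = 3) and 115 ± 16 (SD, n = 3). The control values enclosed all 3 TGF-β values. Its rank lay between 184 and 194 on every array, a range of the top 7.17% to 7.56%. The probe of miR-185-5p, with which it has its first 16 bases in common, had ranks of 134 to 145, with 191 ± 36.2 units (SD, n = 3) without TGF-β and 194 ± 24.5 units (SD, n = 3) with it.

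miR-3976 was near the limit of the array. Its level was 1.14, 3.83 and 2.85 units on the control arrays and 2.67, 3.05 and 3.55 units on the TGF-β arrays. It was detected on 5 arrays, all except control replicate 1, and its ranks ran from 991 to 1609. On that array 34 of the 320 blank spots were at least as bright, while on each of the other 5 arrays no more than 1 blank spot was.

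miR-4644 was near the limit as well. Its level was 2.43, 2.00 and 0.599 units on the control arrays and 2.77, 1.02 and 0.814 units on the TGF-β arrays. It was detected on 3 arrays, of which 2 were control arrays and 1 was a TGF-β array. Its ranks ran from 1169 to 1951. On the 3 arrays without detection, 20 to 82 of the 320 blank spots were at least as bright. A limit of 3 SD in place of 2 gave the same number of arrays with detection, 3 for miR-4644 and 5 for miR-3976.

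The negative control spots put these levels in context. The arrays hold 16 spots named Negative Control 1, whose median was 2.18 to 3.14 units above the blank mean and whose brightest spot was 3.81 to 6.29 units above it. Neither miR-3976 nor miR-4644 exceeded the brightest of these spots on any array, and at least 2 of the 16 were as bright as miR-3976 on every array and at least 10 as bright as miR-4644. The 8 spots named Negative Control 2 were lower, with medians of 0.00907 to 0.859 units. None of those was as bright as miR-3976 on the 5 arrays that detected it, and none was as bright as miR-4644 on the 3 arrays that detected it. Of the blank spots themselves, 5.63% to 7.81% passed the detection limit.

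**Figure D2:**
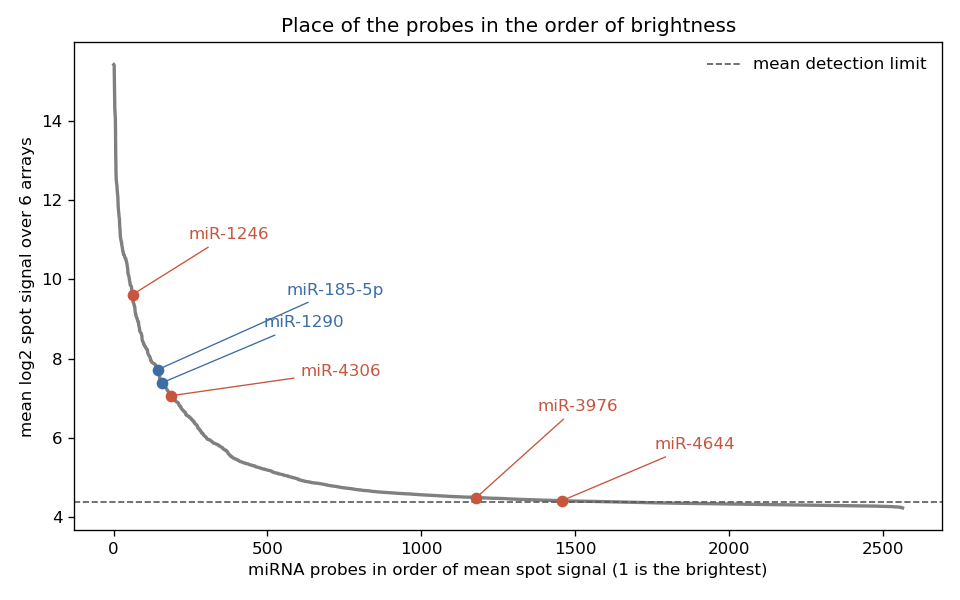
Mean log2 spot signal over the 6 arrays (vertical axis) of all miRNA probes, in order of brightness from 1, the brightest (horizontal axis), with the 4 members in red, their sequence relatives in blue and the mean detection limit dashed. miR-1246 and miR-4306 lie on the steep part of the curve, and miR-3976 and miR-4644 on its flat end near the limit.

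For the comparison of TGF-β with control, blank-corrected signals were quantile normalized and compared on the log2 scale with limma. The test covered 1457 miRNAs, those detected throughout the control arrays, the TGF-β arrays or both. Of these, 58 had an adjusted p under 0.05, a share of 3.98%, of which 38 (2.61%) were higher and 20 (1.37%) lower with TGF-β. Of the 2 members detected on all 6 arrays, miR-1246 and miR-4306, 0 were called. By the unadjusted p of the same limma fit, 0 of these 2 were under 0.05, compared with 13.9% of all miRNAs tested. In a fit of only the 1282 miRNAs detected on all arrays, 56 were called and 181 had an unadjusted p under 0.05. With 2 members, a count of 0 says little beside these shares. The control and TGF-β arrays overlapped for both, whereas the groups did not overlap for 19.0% of the miRNAs tested.

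The normalized log2 level of miR-1246 was 9.37, 9.53 and 9.64 without TGF-β and 9.46, 9.61 and 9.87 with it. The highest value was that of TGF-β replicate 3 and the lowest that of control replicate 1. TGF-β and control thus differed by a log2 fold change of 0.13 (SE 0.10, adjusted p = 0.649 by limma), or 1.10-fold, with a 95% interval from 0.937-fold to 1.28-fold. The exact permutation test, 2-sided, gave p = 0.5 for these values, where the smallest p that 3 arrays against 3 allow is 0.1. Among the miRNAs tested, 55.2% had a larger change in either direction. Without TGF-β replicate 3 the log2 fold change was 0.016, and the highest value with 1 array left out was 0.23.

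The deposited processed values of miR-1246 were 2257, 3037 and 3072 without TGF-β and 2717, 4379 and 3764 with it, and the ratio of the means was 1.3. The groups overlapped here too. The highest of these, 4379 on TGF-β replicate 2, came with the largest scaling factor of the 6 arrays (4.78, compared with 3.37 to 4.31 on the others). On the log2 scale the deposited values gave a change of 0.36 (adjusted p = 0.655 by limma), when the median of all miRNAs tested was 0.11 and 2.13% of all miRNAs were called. With the local background of each spot in place of the blank spots, the change was 0.40 (adjusted p = 0.99 by limma). The local background read beside the spot of miR-1246 was itself 0.279 to 0.928 of the spot's signal.

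Its relative miR-1290 had log2 levels of 6.75, 7.28 and 7.05 without TGF-β and 7.10, 7.48 and 7.62 with it. The values overlapped, since control replicate 2 was above TGF-β replicate 1. This gave a log2 fold change of 0.37 (SE 0.15, adjusted p = 0.278 and unadjusted p = 0.0313 by limma). It lay between 0.050 and 0.54 over the alternatives, with the lowest value under the local background, and it was not called in any of them. Across the 6 arrays the log2 levels of miR-1246 and miR-1290 had a correlation of 0.82, place 24 among the 1281 other miRNAs detected on all arrays. That of miR-1246 with miR-185-5p, which has no such run in common with it, was 0.85, place 15, and that of miR-4306 with its relative miR-185-5p was -0.20, place 819. The points are 6 arrays that share their normalization, and the values are given as a description. The difference between the changes of miR-1246 and miR-1290 was not tested.

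miR-4306 had log2 levels of 6.76, 6.90 and 6.86 without TGF-β and 6.81, 6.89 and 6.81 with it. The difference was a log2 fold change of -0.0014 (SE 0.080, adjusted p = 0.997 by limma), with a 95% interval from 0.884-fold to 1.13-fold. The exact permutation test, 2-sided, gave p = 1. Its change was one of the smallest on the array, and 99.1% of the miRNAs tested had a larger one. A value this close to 0 has no settled sign, and it lay between -0.045 and 0.14 over the alternatives, the highest with the deposited values, whose median over all miRNAs was 0.11. miR-185-5p gave 0.019 (SE 0.075, adjusted p = 0.969 by limma), with a 95% interval from 0.903-fold to 1.14-fold, and 0.30 with the local background. On the log2 scale the SD of miR-4306 was 0.075 over the 3 control arrays and 0.049 over the 3 TGF-β arrays. That of miR-185-5p was 0.043 over the control arrays and 0.088 over the TGF-β arrays.

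miR-3976 entered the test because it was detected on all 3 TGF-β arrays, while it was detected on 2 of the 3 control arrays. Its log2 levels were 0.38, 2.03 and 1.31 without TGF-β and 1.48, 1.5 and 1.81 with it. The TGF-β values lay inside the range of the control values. The fit gave a log2 fold change of 0.36 (SE 0.38, adjusted p = 0.753 by limma). This value rests on levels within or below the range of the Negative Control 1 spots, on a probe that entered through the TGF-β arrays, and is not read as a measured fold. On control replicate 1 all 16 of those spots were at least as bright as miR-3976. Without control replicate 1, the array on which it was not detected, the fitted value was -0.069, and with the deposited values it was 0.020. The deposited table gives it as 17 and 10 without TGF-β and 11, 15 and 14 with it, with no value on control replicate 1.

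miR-4644 did not pass the filter on dim probes, and no fold change is given for it. The deposited table lists it as 10 and 9 on 2 control arrays and as 12 on 1 TGF-β array.

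**Figure D3:**
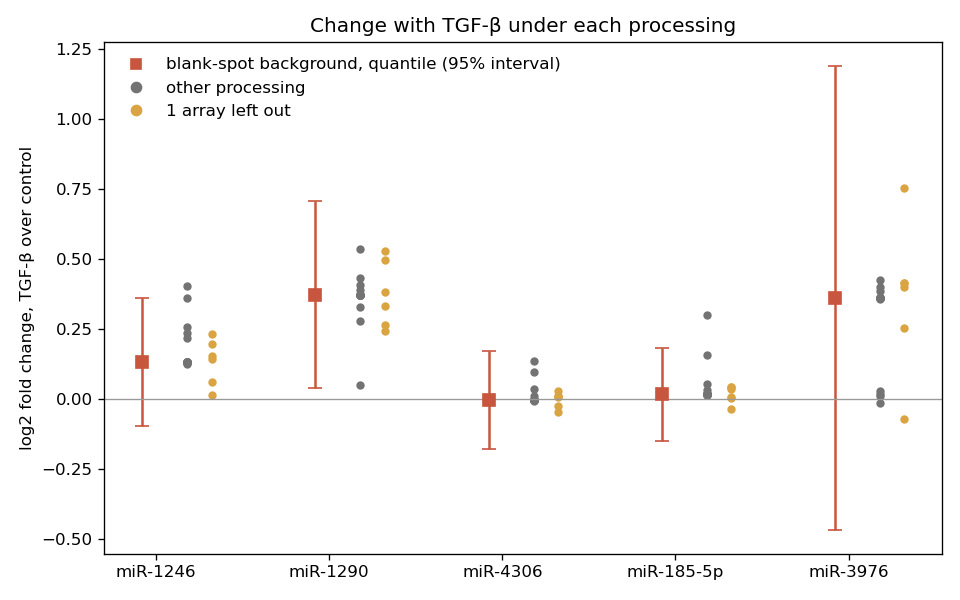
Log2 fold change of TGF-β over control (vertical axis) for the 3 members tested and their 2 relatives. Squares are the values with the blank-spot background and quantile normalization with their 95% interval, grey points other processing and yellow points fits with 1 array left out; the intervals of miR-1246, miR-4306, miR-185-5p and miR-3976 include 0, and that of miR-1290 does not before adjustment.

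The miRNAs with the most similar pattern to miR-1246 and miR-4306 were taken from the correlation of log2 levels over the 6 arrays, among the miRNAs detected on all arrays. For miR-1246 these were miR-6827-5p (0.99), miR-4635 (0.98) and miR-432-3p (0.97), and 6 of 1281 miRNAs were above 0.9. For miR-4306 they were miR-1909-5p (0.95), let-7e-5p (0.94) and miR-4267 (0.92), and 11 were above 0.9. None is given for miR-3976, whose levels lay within or below the range of the Negative Control 1 spots. The correlation between miR-1246 and miR-4306 was 0.25. Over 6 arrays, and with these names picked as the highest of the candidates, the values are a description of the pattern only.

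The members were set beside 23 other miRNAs described in vesicles or serum exosomes of pancreatic cancer. This list was drawn up with earlier results of these data known, and the rise of miR-181a-5p and miR-483-3p was among them, so its counts are no independent evidence. The list also holds miR-622, which the paper chose from these same arrays among miRNAs reduced with TGF-β. Its log2 fold change of -0.42 (adjusted p = 0.227 by limma) and its non-overlapping groups are thus no separate evidence either. Of the 23, 21 were tested, of which 2 were called higher, 2 were called lower and 17 were not called, compared with 3.98% called among all miRNAs tested. On normalized values the groups did not overlap for 12 of the 21, against the 19.0% given above, which is also on normalized values. In units before normalization they were apart only for miR-181a-5p, miR-483-3p and miR-622. The median log2 fold change was -0.014, against -0.013 over all miRNAs tested. miR-1290 is on this list too.

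miR-181a-5p, an miRNA known for its part in lymphocyte development, rose from 98.0 ± 12.3 units (SD, n = 3) to 228 ± 19.6 units (SD, n = 3), or 1.19 on the log2 scale (SE 0.079). miR-483-3p, encoded in an intron of IGF2, rose from 2.67 ± 0.733 units to 7.93 ± 0.159 units (SD, n = 3 each), or 1.59 on the log2 scale (SE 0.20). Its control mean lay within the range of the medians of the Negative Control 1 spots, although it passed the blank limit on all 6 arrays, so the size of this fold is uncertain. miR-10b-5p, known as a promoter of tumour cell invasion, fell from 1397 ± 210.2 units to 1093 ± 127 units (SD, n = 3 each), a log2 fold change of -0.38 (SE 0.057). miR-191-5p, which is abundant in many cell types, fell from 2132 ± 274 units to 1806 ± 201 units (SD, n = 3 each), a log2 fold change of -0.34 (SE 0.062). Before normalization, in the units given here, the control and TGF-β arrays overlapped for miR-10b-5p and for miR-191-5p, and the falls are those of the normalized values. The adjusted p-values of the 4 by limma were 5.72e-06, 0.000636, 0.00294 and 0.0100 in that order. The 4 calls became 2 with median scaling, no normalization, the deposited values, no filter or no trend. With the local background, limma called 0 of the list, with 2 at an unadjusted p under 0.05. miR-196a-5p, which like miR-1246 has been described in vesicles of PDAC cells, had a log2 fold change of -0.16 (adjusted p = 0.293 by limma). miR-200c-3p and miR-122-5p of the list were not tested, as they were detected on 1 and 3 arrays.

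**Figure D4:**
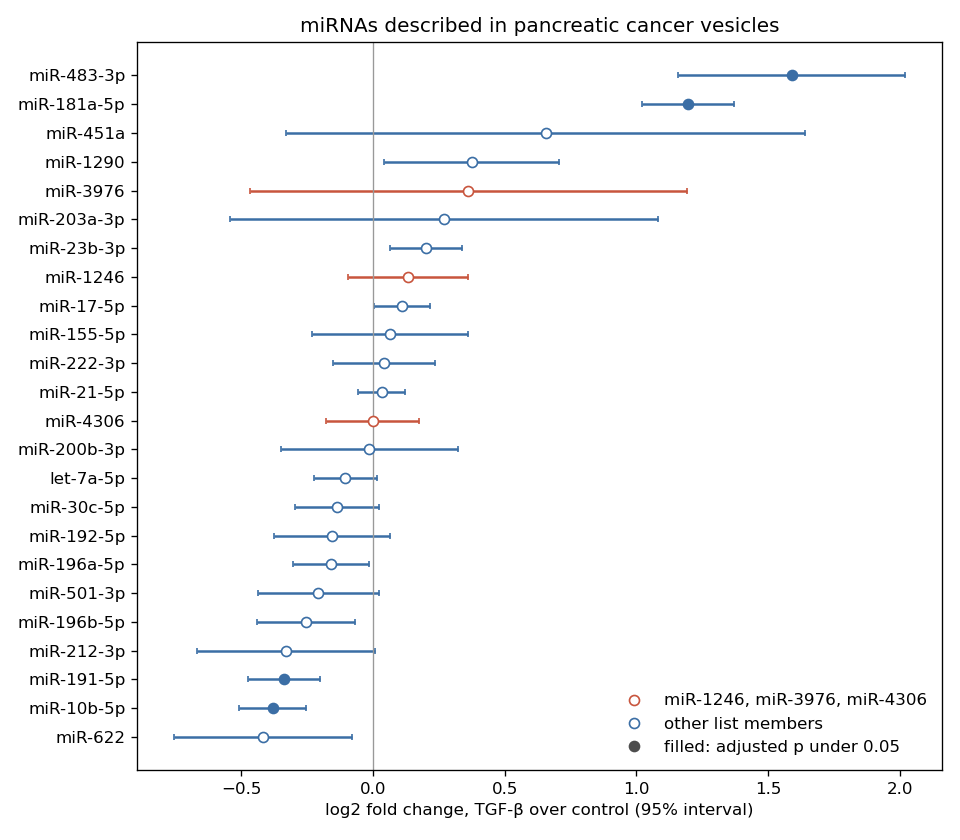
Log2 fold change of TGF-β over control (horizontal axis) with its 95% interval for the 3 members tested (red) and the 21 tested miRNAs of the list (blue). Filled points had an adjusted p under 0.05 by limma, which were miR-483-3p, miR-181a-5p, miR-191-5p and miR-10b-5p, and the members are open points whose intervals include 0.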

How the data were processed

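RNA of Panc-1 cells was labelled with Cy5 and hybridized to 1-colour 3D-Gene miRNA arrays. For each of 3200 spots, the authors deposited the median intensity from the scanner and the median of the local background beside it, both linear and not normalized, and a table of processed intensity values whose method is not given in the sources used here. That table could be rebuilt to within rounding (0.5 units) by subtracting the mean of the 320 blank spots, with 5% left out at each end, scaling the median of the detected miRNAs of each array to 25 and leaving undetected or flagged spots empty. It is linear and not centred, and each column's median is 25.

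Here the same blank mean was subtracted, with a floor of 1 unit, 3 flagged miRNA spots over the 6 arrays were set as missing, and all miRNA probes were quantile normalized and compared with limma 3.58.1 in R 4.3.3 (intensity trend, Benjamini-Hochberg adjustment). The blank spots were used because a brighter spot had a brighter local background: on spots above 200 units the median ratio was 0.434 to 0.995, and arrays correlated at 0.639 to 0.971 after normexp correction with an offset of 50, compared with 0.984 to 0.992 with the blank spots. Depth on an array is its signal over background, and the number of arrays limits the precision. The procedure was also run on simulated arrays, which had no differences in gain or background between arrays. The outcome is not given here and is not used as support for these results. Plots were made with matplotlib in Python 3.11.15.

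Named miRNAs were the members and array miRNAs with the same seed or a run of at least 12 bases in common. The 3 most alike in pattern to miR-1246 and to miR-4306, and called miRNAs of the vesicle list, were named too. Those most alike to miR-3976 are left out, as its signal lay within or below the range of the brighter set of negative control spots. miR-622, miR-196a-5p, miR-200c-3p, miR-122-5p and single cell type markers were named outside this rule, after their values were seen. miR-1290 and miR-185-5p, also named in that rule, were found by the sequence search as well. The members, lists and the choice of background were set with earlier results of these data known. Alternatives were other normalizations, backgrounds, floors, filters and tests, the processed table as deposited, a block for the replicate number, and each array left out.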

Additional observations from a re-analysis of the deposited data

How the results depend on the processing

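Neither miR-1246 nor miR-4306 was called in any alternative run, and nor was the fitted value of miR-3976. The log2 fold change of miR-1246 stayed above 0, from 0.016 to 0.40, with adjusted p-values from limma or the methods' t-test of 0.339 to 0.99, and between 0.016 and 0.23 with 1 array left out. That of miR-4306 changed sign with median scaling (0.036), no normalization (0.013), the local background (0.096) and the deposited values (0.14), and ranged from -0.045 to 0.031 with 1 array left out. That of miR-3976 was -0.011 with the local background, 0.020 with the deposited values, 0.029 with no background correction and 0.012 with an offset, and ranged from -0.069 to 0.76 with 1 array left out. That of miR-185-5p was 0.30 with the local background and 0.16 with the deposited values, and ranged from -0.033 to 0.045 with 1 array left out. miR-4644 did not pass the filter on dim probes, so no fold is given for it.

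The count of 58 calls over all miRNAs became 35 with no normalization, 0 with the local background (34 at an unadjusted p under 0.05), 31 with the deposited values, 19 with no filter, 17 with the methods' t-test (194 before adjustment), 32 without the intensity trend and 25 to 51 with 1 array left out (25 without TGF-β replicate 2, 33 without TGF-β replicate 3 and 35 without control replicate 2). The 4 calls in the vesicle list became 2 with median scaling, no normalization, the deposited values, no filter or no trend, 1 with the methods' t-test and 0 with the local background, and 3 or 4 with 1 array left out. The cause of these shifts was not tested. Same-numbered arrays deviated together with correlations of 0.13, 0.11 and -0.027, so the numbers were not taken as pairs; the replicate block gave 60 calls, with adjusted p-values of 0.339 for miR-1246 and 0.716 for miR-3976 from limma.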
